A study of Mus musculus with 16 samples.

Results

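Vα3.2+ CD8 T cells sorted from lymph nodes (LN) and from the thymus of Themis-/- mice were compared, in 4 of the 16 samples of the series. They were chosen by their labels, as the sorted Vα3.2+ samples of the knockout, and comprise 2 LN samples (LN 1 and LN 2) and 2 samples of single positive CD8 thymocytes (thymus 1 and thymus 2). The other 12 samples are the matching Themis+/+ sorts and unsorted CD8 cells of both genotypes, of which the 4 Themis+/+ sorts and the 4 unsorted Themis-/- samples serve below for comparison. All 4 knockout sorts carried the genotype Themis-/-Foxp3-GFP on a C57BL/6 background, so the Foxp3 reporter was shared by both tissues. The deletion is a germline one, not limited to T cells, and LN of several mice were pooled before sorting according to the methods, while the series design text speaks of individual mice, so it is not settled that a sample is 1 mouse. The labels name no age. The α chain transcripts were copied by template switching and amplified with a constant region primer, and the authors extracted CDR3 clonotypes with read counts. TCRα tables do not measure Themis, so the genotype rests on the labels, and 1 label field names another Vα segment than Vα3.2 for these sorts.

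A TCR α chain is made when 1 V segment is joined to 1 of many J segments, and the junction forms the CDR3, the loop that contacts peptide and MHC. Before joining, V and J ends can lose bases, can gain short palindromic (P) bases when a hairpin is opened off centre, and can gain non-templated (N) bases added by terminal deoxynucleotidyl transferase. The α locus rearranges repeatedly in a thymocyte, in general from J segments near the V side towards J segments near the constant region. Themis is a signalling protein of developing thymocytes that acts during positive selection, and Vα3.2 is the product of TRAV9N-3, a V segment found mostly on CD8 T cells.

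The germline ends that these CDR3s were built from, and the CDR3s that the results turn on, are shown first. The CDR3s listed had at most 3 bases outside the germline match. They were picked by read share or by presence in both tissues or all 4 samples, so they do not stand for the other sequences. TRAV9N-3 lies on chromosome 14 of GRCm38 at 53231433 to 53232102 on the + strand and is annotated as a V gene segment, and the J segments follow on the same strand, from TRAJ33 at 54185358 to 54185414 to TRAJ4 at 54216291 to 54216353. The parts of these segments that lie within the CDR3, from GENCODE release M21, run 5′ to 3′ as follows.
TRAV9N-3: tgtgctgtgagca
TRAJ26: gaaataactatgcccagggattaaccttc
TRAJ33: tggatagcaactatcagttgatctgg
TRAJ12: gggactggaggctataaagtggtcttt
TRAJ4: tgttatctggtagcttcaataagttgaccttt
TRAJ7: ggactacagcaacaacagacttactttg

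The CDR3s found in both tissues with the highest geometric mean of LN and thymus read shares were the next 5, given in that order and as deposited. Capitals mark the bases that matched neither germline end, which can be P or N bases.
TRAJ26 clone a: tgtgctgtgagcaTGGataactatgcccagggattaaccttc
TRAJ33 clone a: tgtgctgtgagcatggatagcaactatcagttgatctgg
TRAJ12 clone a: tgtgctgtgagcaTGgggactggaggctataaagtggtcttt
TRAJ4 clone a: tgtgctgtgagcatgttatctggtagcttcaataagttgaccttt
TRAJ12 clone b: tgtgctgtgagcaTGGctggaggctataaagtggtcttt
All 5 kept the whole V end and read atg as codon 5, methionine at CDR3 position 5 counted from the conserved cysteine. The a of that codon is the last germline base of the V segment, and tg is both the P dinucleotide that the V end would give and, in TRAJ33 and TRAJ4, the first 2 bases of the J part.

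The other 4 sequences found in all 4 samples had at most 1 base outside the germline match.
TRAJ12 clone c: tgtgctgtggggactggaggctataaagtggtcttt
TRAJ7 clone a: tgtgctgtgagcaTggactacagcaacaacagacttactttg
TRAJ12 clone d: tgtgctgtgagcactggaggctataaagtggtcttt
TRAJ23 clone a: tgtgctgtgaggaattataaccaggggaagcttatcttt
The remaining sequences among the 3 largest of a tissue were 1 of LN and 2 of thymus.
TRAJ21 clone a: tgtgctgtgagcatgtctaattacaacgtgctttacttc
TRAJ6 clone a: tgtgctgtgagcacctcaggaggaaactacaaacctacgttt
TRAJ31 clone a: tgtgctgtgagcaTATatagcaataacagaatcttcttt

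The 4 samples held 10338 to 25247 reads. Molecular identifiers are not described, so a read is not a molecule and every limit set from a count covers only the counting error. LN 1 held 1305 distinct TRAV9N-3 CDR3 nucleotide sequences in 19109 reads and LN 2 held 530 in 10771, while thymus 1 held 76 in 8585 and thymus 2 held 299 in 7805. A sequence had a median of 9 reads in LN 1, 15 in LN 2, 88.5 in thymus 1 and 19 in thymus 2. Thymus 1 therefore stood apart as a sample of few, deeply read sequences, and the differences that lean on it are given without it as well, an alternative partly chosen after seeing the data. The first thymus sort of Themis+/+ was alike, with 69 sequences in 8724 reads. The sources give no number of sorted cells for these samples, and fewer cells and less RNA per cell cannot be told apart. The study describes its data as pooled from separate experiments, but no label ties a sample to an experiment, so p-values measure only the spread between these samples, which may be technical.

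The TRAV9N-3 and TRAV9-4 shares of the sorts followed the sample number and not the tissue. TRAV9N-3 made up 75.7% of reads in LN 1, 48.9% in LN 2, 83.0% in thymus 1 and 34.0% in thymus 2, an overlap of both tissues (difference LN minus thymus 3.74 percentage points, exact permutation test, two-sided, p = 1). Most of what TRAV9N-3 lacked in the samples numbered 2 was TRAV9-4, a close relative, at 33.7% in LN 2 and 38.7% in thymus 2 against 1.56% in LN 1 and no read in thymus 1, where a count of 0 allows up to 0.0290% of reads. TRAV9N-4 took 7.57% in LN 1, 9.87% in LN 2, 10.7% in thymus 1 and 15.9% in thymus 2, so it was lower in both LN samples. Its reads in thymus 1 were 1 single sequence. TRAV9D-3 took 5.49% to 10.97% and TRAV9D-4 0% to 3.71%, and segments outside the TRAV9 family stayed at or below 0.716% of reads in each sample.

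**Figure D1:**
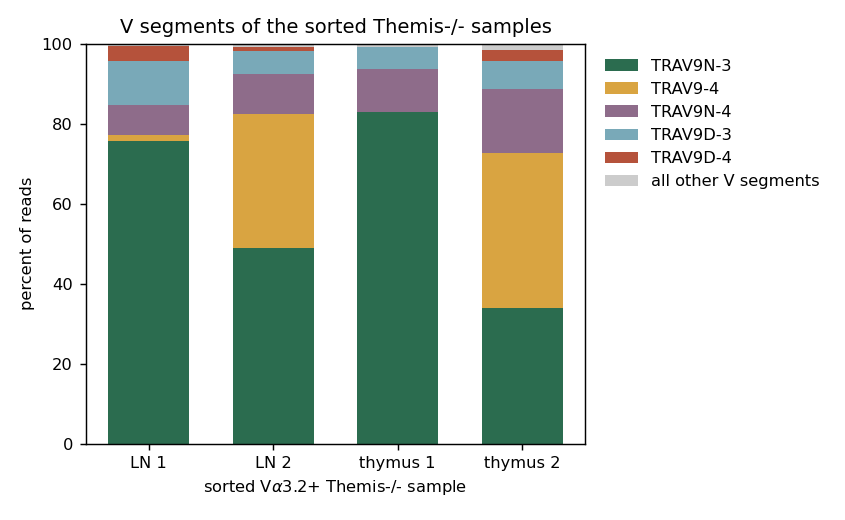
Percent of reads by V segment in the 4 sorted Themis-/- samples (x axis), each bar adding up to all reads of a sample. Segments with a mean of at least 1% are drawn apart. TRAV9-4 is wide in LN 2 (33.7%) and thymus 2 (38.7%) and thin or missing in LN 1 (1.56%) and thymus 1 (0%).

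Unless stated otherwise, the following values are for TRAV9N-3 sequences. This choice itself touches the junction. The annotated CDR3 parts of TRAV9N-3 and TRAV9D-3 are identical, but sequences called TRAV9N-3 alone had A as base 13 of the CDR3 in 66.7% to 91.3% of cases, and those called TRAV9D-3 alone in 16.7% to 42.9%. Base 13 opens the codon of position 5, so values for both segments joined are given where they change a direction.

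J segment use was broad in both tissues and leaned to the constant region side of the locus. The 5 J segments with the highest mean share, TRAJ12, TRAJ9, TRAJ22, TRAJ15 and TRAJ7, together took 32.0% to 36.5% of reads in each sample. TRAJ12 had 8.64% of reads in LN 1, 8.09% in LN 2, 8.50% in thymus 1 and 9.93% in thymus 2. TRAJ9 had 8.10%, 9.27%, 9.13% and 6.78% in that order. For both segments the tissues overlapped, and edgeR gave log2 fold changes, LN over thymus, of -0.04 ± 0.25 for TRAJ12 and 0.25 ± 0.18 for TRAJ9 (SE, adjusted p = 0.996 and 0.816). TRAJ22 (0.19 ± 0.44), TRAJ15 (0.01 ± 0.55) and TRAJ7 (-0.11 ± 0.31) lay as close to 0, with adjusted p of 0.993, 0.996 and 0.996.

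Of the 42 J segments with enough reads to test, edgeR's quasi-likelihood test called 0 (0%) at an adjusted p under 0.05, and 6 had an unadjusted p under 0.05. DESeq2 on the same reads called 8 (19.0%), 7 higher in LN and 1, TRAJ4, lower. TRAJ4 took 3.77% and 3.61% of LN reads against 6.43% and 5.65% of thymus reads, a log2 fold change of -0.59 ± 0.31 by edgeR (adjusted p = 0.666) that DESeq2 put at -0.68 (adjusted p = 0.0126). TRAJ6 also lay lower in both LN samples, at 3.76% and 3.57% against 6.38% and 5.06%, with an adjusted p of 0.754 by edgeR. TRAJ5, which lies between them on the chromosome, overlapped, at 1.47% and 1.70% in LN and 0.291% and 3.65% in thymus. Read shares of the tissues did not overlap for 17 of 43 J segments (39.5%), 15 of them higher in LN and 2, TRAJ4 and TRAJ6, lower. With 2 samples against 2, a lack of overlap has p = 0.333 by the exact permutation test, which is near this share. In thymus 1 TRAJ4 and TRAJ6 held 2 sequences each, the larger with 56.7% and 68.6% of the segment's reads. By distinct sequences both segments overlapped. TRAJ4 had 3.98% and 4.15% in LN and 2.63% and 4.68% in thymus, and TRAJ6 4.75% and 5.28% against 2.63% and 6.02%.

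TRAJ35 and TRAJ38, which had the smallest adjusted p by both tools (by DESeq2 level with TRAJ56), were rare segments without reads in the thymus. Both LN samples held reads of all 43 J segments, thymus 1 of 25 and thymus 2 of 35. In LN alone were 7 segments, TRAJ28, TRAJ35, TRAJ38, TRAJ45, TRAJ53, TRAJ56 and TRAJ57, named here after their values were seen. TRAJ38 had 37 reads in LN 1 and 27 in LN 2, and TRAJ35 had 44 and 33, against 0 in both thymus samples, where a count of 0 allows up to 0.0349% and 0.0384% of TRAV9N-3 reads. Their adjusted p was 0.0519 each by edgeR, and with every V segment counted both were called. The largest sequence of a J segment held a median of 68.6% of its reads in thymus 1 and 37.5% in thymus 2, against 18.5% in LN 1 and 32.1% in LN 2. TRAJ15 was 87.4% 1 sequence in thymus 1. Without thymus 1 the edgeR test called 8 of 42 segments (19.0%), all higher in LN, and without thymus 2 it called 27 of 42 (64.3%), and in both the lone thymus sample was assumed to vary like the LN samples.

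**Figure D2:**
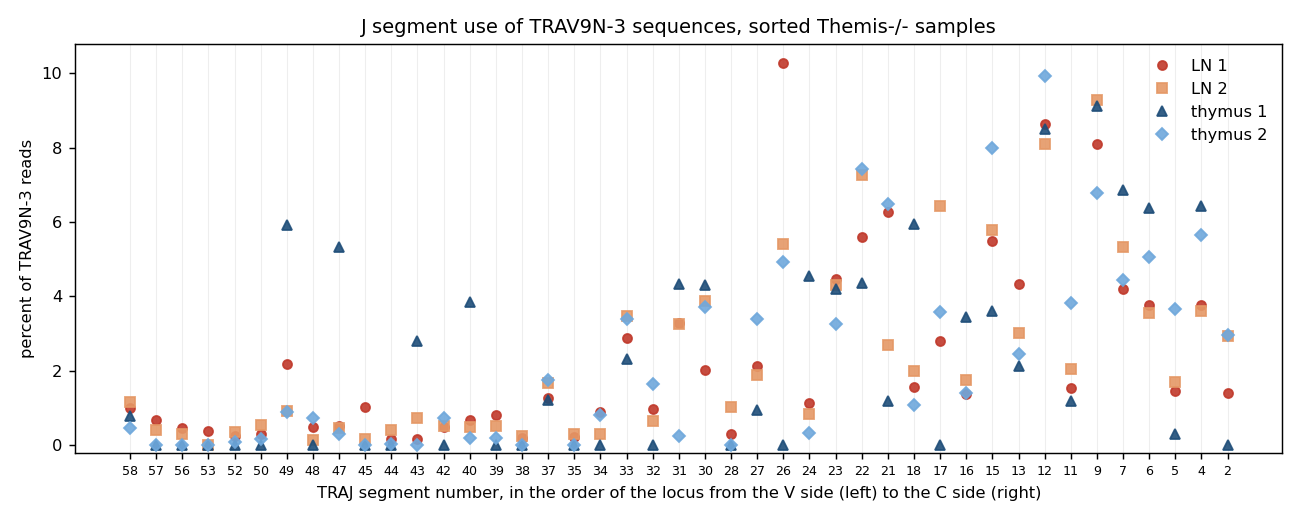
Percent of TRAV9N-3 reads (y axis) by J segment, ordered along the locus from the V side to the constant region side, with 1 point per sample and segment. Points of both tissues lie among each other for TRAJ12, TRAJ9, TRAJ22, TRAJ15 and TRAJ7, while thymus 1 stands apart at TRAJ49 (5.93%) and TRAJ47 (5.32%) and lies at 0 for 18 segments, and LN 1 is highest at TRAJ26.

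By position along the locus, the mean J number per distinct sequence was 21.4 in LN 1, 20.1 in LN 2, 21.1 in thymus 1 and 18.3 in thymus 2, which is 20.7 ± 0.898 against 19.7 ± 2.03 (SD, n = 2; exact permutation test, two-sided, p = 0.667). The smallest p that 2 samples against 2 allow is 0.333, so no such comparison here can pass 0.05. The segments nearest the constant region, TRAJ2 to TRAJ10, took 22.7% and 26.4% of LN reads and 29.1% and 28.5% of thymus reads, without overlap (exact permutation test, p = 0.333). The difference was -4.26 percentage points, and -3.99 without thymus 1. Counted by distinct sequences the same group overlapped, at 23.8% and 27.2% in LN and 23.7% and 26.1% in thymus. Towards the V side, but short of its end, TRAJ37 to TRAJ47 held 13.2% of reads in thymus 1 and 3.22% in thymus 2. The LN samples lay between, at 5.34% and 5.23%. In this group the thymus samples lay farther apart than the tissues.

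The difference in J use between tissues was also compared with that of the Themis+/+ sorts. The interaction of tissue and genotype, fitted by edgeR over all 8 sorted samples, called 0 of 43 J segments (0%), with 2 at an unadjusted p under 0.05, and DESeq2 called 3. For TRAJ12 the interaction was -1.10 on the log2 scale and for TRAJ9 1.10 (adjusted p = 0.644 each). In Themis+/+, TRAJ2 to TRAJ10 also took fewer reads in LN, 24.3% and 23.0%, than in thymus, 26.4% and 28.2%.

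N addition did not separate the tissues. The mean number of N nucleotides per sequence, read from the alignment positions in the files, was 2.01 in LN 1, 1.95 in LN 2, 2.41 in thymus 1 and 1.77 in thymus 2 (1.98 ± 0.0418 in LN, 2.09 ± 0.449 in thymus, SD, n = 2; exact permutation test, two-sided, p = 1). The thymus samples lay on either side of both LN samples. Without thymus 1 the difference changed sign, from -0.106 to 0.212 nucleotides. Sequences with no N nucleotide made up 31.5% and 33.4% in LN and 31.6% and 36.1% in thymus (p = 0.667, exact permutation test).

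The reading of N moved the values. The file alignments give N and P bases from the alignment ends, and matching each CDR3 exactly to the germline ends with at most 4 P bases, a method chosen after seeing the data, gave 2.85, 2.65, 2.86 and 2.64 N nucleotides in the same order. By that count 15.7% and 19.6% of LN sequences and 22.4% and 20.1% of thymus sequences had none, without overlap (exact permutation test, p = 0.333). Without thymus 1 the difference went from -3.55 to -2.40 percentage points. The Themis+/+ sorts gave 16.2% and 19.1% in LN and 23.2% and 20.9% in thymus.

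End trimming was light. The V end was intact by the file alignments in 72.5% of LN 1 sequences, 75.1% of LN 2, 60.5% of thymus 1 and 72.6% of thymus 2. Without thymus 1 the difference went from 7.24 to 1.22 percentage points. The J ends lost a mean of 2.71 and 2.85 bases in LN and 2.64 and 2.63 in thymus. The J difference had no overlap between tissues, at 0.146 bases, while the V means, 0.697 and 0.625 bases in LN and 1.13 and 0.682 in thymus, overlapped.

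CDR3 length was centred on 39 and 42 bases in all 4 samples. The mean was 40.3 bases in LN 1, 40.5 in LN 2, 39.7 in thymus 1 and 40.4 in thymus 2, so that the tissues overlapped (40.4 ± 0.163 and 40.1 ± 0.491, SD, n = 2; exact permutation test, two-sided, p = 0.667). Thymus 1 had its peak at 39 bases, with 38.2% of sequences, and the others at 42 bases, with 29.04%, 31.1% and 35.1%. CDR3s of 45 bases were 16.02% and 14.9% of LN sequences and 7.89% and 12.4% of thymus sequences, without overlap (exact permutation test, p = 0.333). The difference of 5.33 percentage points was 3.09 without thymus 1. Weighted by reads the 45-base share overlapped, with 14.2% and 12.8% in LN and 12.98% and 12.2% in thymus. The mean length weighted by reads differed by -0.0513 bases, a reversal of the sign.

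**Figure D3:**
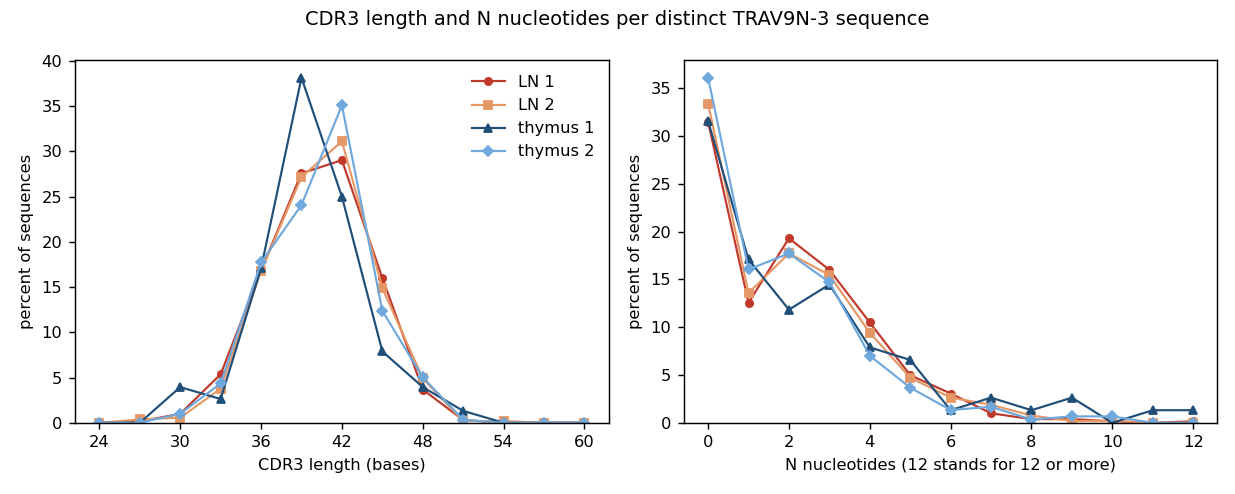
Percent of distinct TRAV9N-3 sequences (y axes) by CDR3 length in bases (left) and by number of N nucleotides (right), 1 line per sample. The lines of both LN samples run close to each other, thymus 1 peaks at 39 bases (38.2%) and thymus 2 at 42 bases (35.1%), and each sample has its highest N value at 0 (31.5% to 36.1%).

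Methionine was the most frequent residue at CDR3 position 5. It held 22.5% of sequences in LN 1, 25.7% in LN 2, 19.7% in thymus 1 and 27.4% in thymus 2, and by reads 33.6%, 32.2%, 18.9% and 34.2%. The thymus samples again lay on either side of the LN samples. In 90.1% to 97.6% of these methionine sequences the whole V end matched germline, so the codon was its last base followed by tg. Methionine is coded only by atg, so this share does not tell whether tg came from P bases, N bases or a J segment. Isoleucine followed with 8.87% to 13.2% of sequences per sample, and proline took 7.36% to 13.2%.

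Hydrophobic residues together held position 5 in 43.1% and 45.5% of LN sequences and 40.8% and 47.2% of thymus sequences (44.3% ± 1.70 against 44.0% ± 4.503, SD, n = 2; exact permutation test, two-sided, p = 1). With TRAV9D-3 joined the shares were 42.04%, 42.6%, 41.0% and 44.96%, and the sign of the difference turned. Of the 20 residues at position 5, 5 (25.0%) did not overlap between tissues. With 2 samples against 2, a lack of overlap has p = 0.333 by the exact permutation test, so such a share can arise by chance alone. Among these 5 residues, lysine was the one with the same order in the Themis+/+ sorts. In Themis-/- it was at 1.61% and 0.755% in LN against 0% and 0.334% in thymus. Leucine was at 4.67% and 4.53% against 2.63% and 3.01%. Thymus 1 counts 76 sequences, so a share of 0 there rests on few. Without thymus 1 the differences were 0.848 percentage points for lysine and 1.59 for leucine. With TRAV9D-3 joined, 6 of 20 residues (30%) did not overlap.

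In the centre of the CDR3, between the outer 4 residues on each side, glycine was the most frequent residue in each sample, with asparagine and serine next in LN 1, LN 2 and thymus 2, and tyrosine lay ahead of serine in thymus 1. Glycine made up 22.7% and 23.2% of central residues in LN and 21.6% and 23.0% in thymus, an overlap. Of 20 residues 4 (20%) did not overlap, methionine and tyrosine lower in LN and glutamine and valine higher, and with TRAV9D-3 joined 7 (35.0%) did not. Such shares can again arise by chance alone. Tyrosine made up 9.29% and 8.99% in LN against 11.1% and 10.1% in thymus, and glutamine 4.59% and 3.74% against 3.52% and 3.30%. These differences were -0.953 percentage points for tyrosine and 0.864 for glutamine without thymus 1.

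The mean hydropathicity of the centre on the Kyte-Doolittle scale, where a lower value is more hydrophilic, was -0.951 in LN 1, -0.911 in LN 2, -0.872 in thymus 1 and -0.900 in thymus 2. LN sequences were lower in both samples, with a mean difference of -0.0453, and -0.0792 between the samples numbered 1 and -0.0114 between those numbered 2 (exact permutation test, two-sided, p = 0.333). With TRAV9D-3 joined the samples overlapped, at -0.955 and -0.922 in LN and -0.852 and -0.939 in thymus. Within CDR3s of 14 residues the difference turned to 0.119, and with every V segment counted it was -0.00024 (exact permutation test, p = 1). Without thymus 1 it was -0.0312. Mean net charge was 0.772 and 0.777 in LN and 0.868 and 0.756 in thymus, with LN between the thymus samples. An internal cysteine was found in 0.307% and 0.189% of LN sequences and in 0% and 0.334% of thymus sequences.

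Distinct clones were more numerous in both LN samples. At 7805 reads per sample, 1173 and 519.9 distinct sequences were expected in LN and 75.6 and 299 in thymus (exact permutation test, two-sided, p = 0.333, the smallest possible). Both LN samples lay above both thymus samples, but LN 1 exceeded LN 2 by more than LN 2 exceeded thymus 2. At that depth nearly all thymus sequences were already counted, with 76 and 299 at full depth. Equal reads therefore do not adjust for the number of sorted cells, which is not given. The number of clones that held 50% of reads was 206 in LN 1, 110 in LN 2, 15 in thymus 1 and 61 in thymus 2. As a share of a sample's own clones that was 15.8%, 20.8%, 19.7% and 20.4%, a range narrower than that of the numbers.

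The 10 largest clones held 13.6% of reads in LN 1, 9.61% in LN 2, 37.1% in thymus 1 and 13.8% in thymus 2 (11.6% ± 2.84 against 25.4% ± 16.5, SD, n = 2; exact permutation test, two-sided, p = 0.333). LN 1 and thymus 2 were nearly level, and without thymus 1 the difference shrank from -13.8 to -2.14 percentage points. With TRAV9D-3 joined LN 1 lay above thymus 2, at 12.03% against 11.4%. Only 3 clones passed 1% of reads in each LN sample, against 39 in thymus 1 and 12 in thymus 2. The largest clone of LN 1, TRAJ26 clone a, held 959 reads or 5.02%, that of thymus 1, TRAJ6 clone a, 376 reads or 4.38%, and the largest of LN 2 and thymus 2 1.32% and 2.10%.

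**Figure D4:**
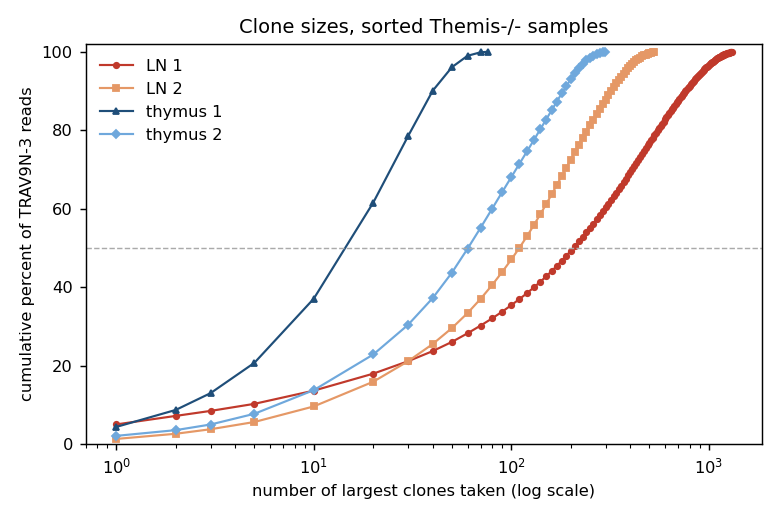
Cumulative percent of TRAV9N-3 reads (y axis) held by the largest clones of a sample, by number of clones on a log scale (x axis), with a dashed line at 50%. The curve of thymus 1 reaches 50% at 15 clones, thymus 2 at 61, LN 2 at 110 and LN 1 at 206.

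A set of 101 nucleotide sequences was found in both tissues, out of 1703 in LN and 364 in thymus, which is 5.93% of the LN sequences and 27.7% of the thymus sequences. These sequences were 6.51% of the sequences and 20.3% of the reads in LN 1, 11.1% and 19.2% in LN 2, 28.9% and 27.7% in thymus 1, and 29.4% and 34.4% in thymus 2. Their share of reads was above their share of sequences in all samples but thymus 1. As amino acid sequences 143 were found in both tissues, 9.58% of LN and 40.6% of thymus. A total of 7 sequences were present in all 4 samples, 38 in 3 and 147 in 2. At 7805 reads in every sample 98.04 shared sequences were expected, close to the count at full depth. Without thymus 2 the count fell to 22, and without LN 1 to 59. Of the 101, 19 had 3 or fewer reads in one of the tissues.

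The samples of a tissue did not share more than samples of different tissues did in every case. LN 1 and LN 2 had 132 sequences in common, 10.1% of LN 1 and 24.9% of LN 2. LN 1 and thymus 2 had 75, 5.75% and 25.1% of them, and LN 2 and thymus 2 had 55, 10.4% and 18.4%. Thymus 1 shared 18 of its 76 sequences (23.7%) with LN 1, 12 (15.8%) with LN 2 and 11 (14.5%) with thymus 2, which is 1.38%, 2.26% and 3.68% of those samples. Thymus 1 thus had a larger part of its sequences in each LN sample than in the other thymus sample, and these samples differ in size. Of the 10 largest sequences, 7 in LN 1, 8 in LN 2, 4 in thymus 1 and 7 in thymus 2 were found in the other tissue. Beyond the 50 largest the share found in the other tissue was 5.18% in LN 1, 8.33% in LN 2, 42.3% in thymus 1 and 26.5% in thymus 2, against 40%, 38%, 22% and 44% of the 50 largest. In LN and in thymus 2, larger clones were thus found in the other tissue more often, and in thymus 1 they were not. The part of clone size in the properties given next was not tested.

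The sequences found in both tissues were closer to germline than the rest of the same sample, in each of the 4 samples. In LN 1 the 85 sequences also found in thymus had a mean of 0.835 N nucleotides against 2.10 in the other 1220, and in LN 2 the means were 0.644 for 59 sequences and 2.12 for 471. In thymus 1 the 22 sequences also found in LN had 0.682 against 3.11 in the other 54, and in thymus 2 the 88 had 0.761 against 2.19 in 211. The 4 samples are not independent here, since the same sequences count in each tissue, and no test was run. Sequences without any N nucleotide were 58.8% against 29.6% in LN 1, 64.4% against 29.5% in LN 2, 63.6% against 18.5% in thymus 1 and 61.4% against 25.6% in thymus 2. By exact matching, 27 of the 101 (26.7%) had no base at all between V and J germline, as TRAJ33 clone a and TRAJ4 clone a above. The share was 7.43% of the sequences found in LN alone and 4.18% of those found in thymus alone. Of the 89 found in both LN samples and in no thymus sample, it was 21.3%.

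Methionine at position 5 was more frequent in the shared sequences of all 4 samples. It was found in 41.2% of the shared and 21.2% of the other sequences of LN 1, in 42.4% and 23.6% in LN 2, in 36.4% and 12.96% in thymus 1 and in 44.3% and 20.4% in thymus 2. Of the 101 sequences 43 had it, including the 5 leading ones. The J segments of the shared sequences lay nearer the constant region, with a mean J number of 14.9 against 21.8 in LN 1, 15.5 against 20.7 in LN 2, 15.1 against 23.6 in thymus 1 and 15.4 against 19.5 in thymus 2. They came from 22 J segments, and TRAJ12 (14 sequences), TRAJ22 (12) and TRAJ9 (12) gave 38 of the 101. That is 13.9%, 11.9% and 11.9% of the shared sequences, against 5.39%, 6.26% and 6.56% of all sequences of the 4 samples. Length did not mark the shared sequences, with 39.9, 40.0, 40.1 and 40.0 bases against 40.3, 40.6, 39.6 and 40.6 in the order of the samples.

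Few N nucleotides were not particular to sharing between tissues. The 89 sequences found in both LN samples and in no thymus sample had a mean of 1.011 N nucleotides and methionine at position 5 in 34.8%. By number of samples, the mean fell from 2.25 in the 1774 sequences of 1 sample to 0.993 in 2 samples, 0.711 in 3 and 0.143 in all 4. The Themis+/+ sorts gave the same order, with 93 sequences in both tissues (6.61% of LN and 30.6% of thymus) and mean N of 0.654 against 2.16 in LN 1, 0.578 against 2.02 in LN 2, 0.692 against 2.00 in thymus 1 and 0.582 against 2.37 in thymus 2. Of the 101 shared Themis-/- sequences, 77 (76.2%) also occurred in a sorted Themis+/+ sample, against 16.7% of the 1602 found in LN alone and 12.9% of the 263 found in thymus alone.

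**Figure D5:**
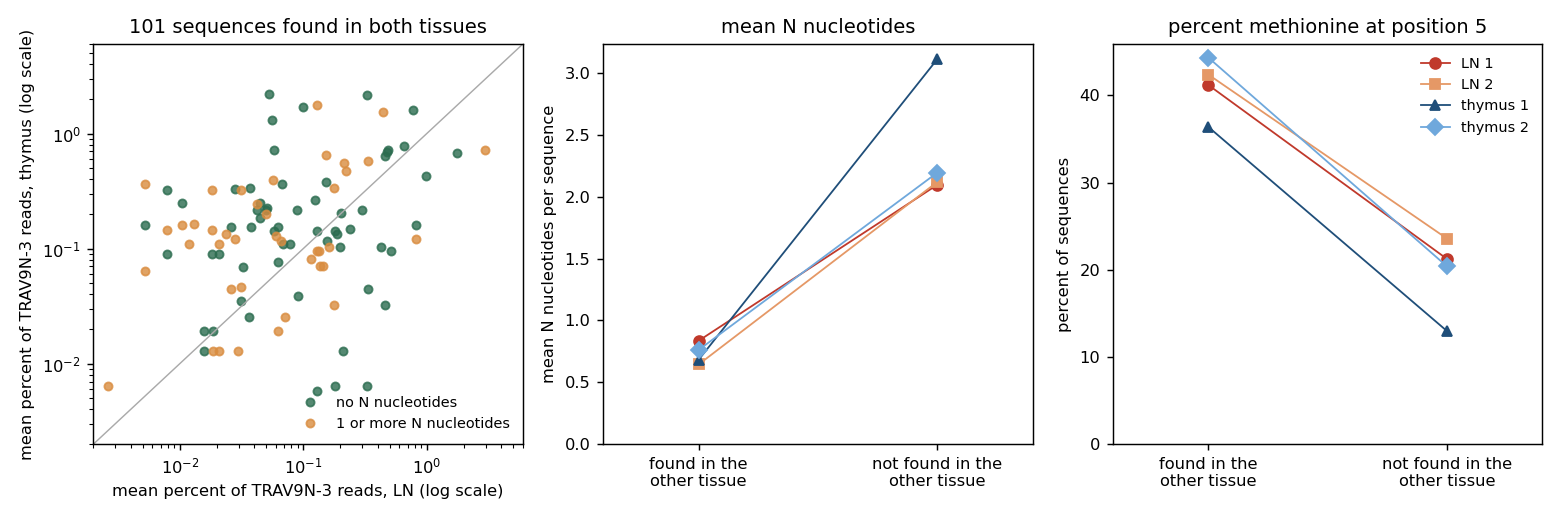
Left, mean percent of TRAV9N-3 reads in LN (x axis) and thymus (y axis) on log scales, 1 point for each of the 101 sequences found in both tissues, with the line of equal shares. Middle and right, mean N nucleotides and percent with methionine at position 5 in sequences that were or were not found in the other tissue, 1 line per sample. All 4 lines rise for N (0.644 to 0.835 against 2.10 to 3.11) and fall for methionine.

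The read shares of single shared sequences differed widely between samples. TRAJ26 clone a had 959 reads in LN 1, 93 in LN 2, 0 in thymus 1 and 112 in thymus 2, which is 5.02%, 0.863%, 0% and 1.43% of TRAV9N-3 reads. TRAJ12 clone a, with 418, 142, 0 and 105 reads, was likewise missing from thymus 1 and present in the other 3. Both had methionine at position 5 and at most 1 N nucleotide, and both occurred in the Themis+/+ sorts, in 2 and 3 samples.

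TRAJ33 clone a had 0.947% and 0.603% of reads in LN and 2.29% and 0.884% in thymus. TRAJ4 clone a had 0.235% and 0.418% in LN against 3.65% and 0.666% in thymus, higher in both thymus samples. TRAJ12 clone b had 0.162% and 0.715% against 2.90% and 0.167%, so its tissues overlapped. For all 3 the highest share was in thymus 1.

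TRAJ12 clone c had 16, 96, 120 and 3 reads, TRAJ7 clone a 77, 55, 15 and 86, TRAJ12 clone d 24, 8, 239 and 49, and TRAJ23 clone a 14, 19, 28 and 16, in the order LN 1, LN 2, thymus 1, thymus 2. As shares of TRAV9N-3 reads, TRAJ12 clone d and TRAJ23 clone a (0.0733% and 0.176% in LN, 0.326% and 0.205% in thymus) lay higher in both thymus samples, and the other 2 overlapped. TRAJ12 clones c and d code for CDR3s of 12 residues with threonine at position 5 and are pure germline joins of a trimmed V or J end. TRAJ21 clone a, the third largest of LN, had 1.26% and 0.706% of LN reads, none in thymus 1 and 0.858% in thymus 2, and was found in all 4 Themis+/+ sorts. The 2 largest thymus sequences by mean share were seen in thymus 1 but not in thymus 2. TRAJ6 clone a had 376 reads in thymus 1 and 20 in LN 1. TRAJ31 clone a had 372 reads in thymus 1 and none in the other 3 samples. The third largest, TRAJ4 clone a, was found in both thymus samples.

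Of the 101 shared sequences 67 had a higher mean share in thymus and 34 in LN, and over 10 times higher were 17 in thymus and 5 in LN. A thymus sample divides its reads over fewer sequences. The median share ratio of LN to thymus was 0.198 for LN 1 and thymus 1, 0.353 for LN 1 and thymus 2, 0.364 for LN 2 and thymus 1 and 0.683 for LN 2 and thymus 2. Within shared sequences the rank correlation of shares between a LN and a thymus sample was 0.189 to 0.296 (Spearman, over 12 to 75 sequences, a description across sequences that share samples and depth), and between LN 1 and LN 2 it was 0.235 over 132. The thymus samples gave -0.282 over 11.

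The unsorted CD8 samples of the same genotype hold sequences with the same V call at low depth. TRAV9N-3 made up 2.79% and 1.96% of reads in unsorted LN and 0.714% and 0.712% in unsorted thymus, with 173, 129, 143 and 108 sequences. Among these, sequences without N nucleotides were 35.3% and 34.1% in LN and 37.1% and 38.9% in thymus, and methionine at position 5 was 23.7% and 24.03% in LN and 30.8% and 20.4% in thymus. Sequences without N nucleotides were more frequent in both unsorted thymus samples, and methionine overlapped between tissues. Weighted by reads, the shares without N overlapped, at 21.5% and 33.4% in LN and 27.1% and 52.8% in thymus. Methionine by reads did not, at 26.0% and 19.4% against 45.7% and 28.2%. By the file alignments these sequences had a mean of 1.71 and 1.97 N nucleotides in LN and 1.78 and 1.95 in thymus. Exact germline matching gave 13.5 and 15.3 in LN and 11.8 and 11.5 in thymus. That method takes bases after the first mismatch to a germline end as N. Its count is far above that in the sorts, so these CDR3s matched the germline ends less closely. It cannot be read here as N addition.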

How the data were processed

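TCRα transcripts of sorted Vα3.2+ cells from LN and thymus were sequenced. The authors made read counts per CDR3 nucleotide sequence with MiXCR, and deposited beside each count its fraction of all reads in the table. VDJtools and WebLogo3 were also used by them, and no version of these tools is stated. The submitters' processing notes name CASAVA 1.4 and mm9. Some clone numbers are skipped in the deposited tables, so clones had been removed before deposit.

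Groups came from the labels, and the members, lists and rules were chosen with earlier results of these data known. Sequences whose V call includes TRAV9N-3 were kept. Reads were summed per J segment and tested by edgeR 4.0.16 (R 4.3.3, quasi-likelihood, TMM, Benjamini-Hochberg, adjusted p under 0.05) where at least 10 reads were found in at least 2 samples. DESeq2 1.42.0 was the alternative. Other measures were taken per distinct sequence and compared by the exact permutation test (scipy 1.17.1, Python 3.11.15). Germline ends were taken from GENCODE release M21 (GRCm38), which matched 43 of 44 J names. The J test was tested on simulated data with far less spread between samples than these data have (edgeR common dispersion 1.13). That simulation therefore does not tell which changes the test could find here. Depth was 10338 to 25247 reads, and a count of 0 was taken to allow up to 3 counts. Named were the 5 J segments with the highest mean share and those called, V segments of at least 1% mean share, the 3 largest sequences of each tissue, those in all 4 samples and the 5 leading shared ones.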

Additional observations from a re-analysis of the deposited data

Results flagged for a closer look

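Of 69 measures compared between genotypes, 3 separated LN from thymus without overlap in both genotypes and in opposite directions. The difference between genotypes was not tested for any of them. With 2 samples against 2, a measure without overlap has p = 0.333 by the exact permutation test. Some of 69 measures would thus separate in opposite directions by chance alone. Mean central hydropathicity weighted by reads was -0.991 and -0.899 in LN and -0.742 and -0.863 in thymus of Themis-/-, a difference of -0.142, against -0.922 and -0.881 in LN and -1.09 and -0.958 in thymus of Themis+/+, a difference of 0.123. TRAJ21 to TRAJ29 made up 24.4% and 22.6% of LN sequences and 25.0% and 26.4% of thymus sequences in Themis-/- (-2.17 percentage points), and 24.5% and 24.8% against 21.7% and 24.5% in Themis+/+ (1.52). CDR3s of 36 bases made up 16.9% and 16.8% in LN and 17.1% and 17.7% in thymus of Themis-/- (-0.590 percentage points), and 15.97% and 18.4% against 11.6% and 14.9% in Themis+/+ (3.96).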

How the results depend on the processing

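All differences are LN minus thymus, and the cause of each change was not tested. The number of J segments called was 0 by edgeR, 8 by DESeq2, 2 with every V segment, 3 with the largest sequence of each J segment left out, and 0 to 27 on leaving out 1 sample. The interaction with genotype called 0, and 3 by DESeq2. The fit with the sample number as a replicate block called 0, as did the crossed pairing. In J use samples of the same number did not deviate together (correlation -0.143 over 42 J segments), although TRAV9N-3 and TRAV9-4 shares went with the number. Mean J number (1.04) was -0.441 with every V segment and ran from -0.395 to 2.47 on leaving out 1 sample. Mean N (-0.106) was 0.00488 by exact germline matching and -0.424 to 0.212. The share without N (-1.40 percentage points) was 4.57 by reads, 1.94 with every V segment, 0.289 with TRAV9D-3 joined, and -3.68 to 0.866. Length (0.322) was -0.0513 by reads and -0.0254 to 0.669. Hydropathicity (-0.0453) was -0.00024 with every V segment, 0.119 in CDR3s of 14 residues and -0.0651 to -0.0255. Hydrophobic position 5 (0.295) was -0.474 by reads, -0.645 joined, and -2.89 to 3.48. The TRAV9N-3 share (3.74) was -5.39 where listed first and -20.8 to 28.2. Shared sequences (101) numbered 22 to 88. Richness (659) ran from 333 to 986 and the share of the 10 largest clones (-13.8) from -25.5 to -2.14, with 1 sign throughout. For single J segments, log2 fold changes of TRAJ12 (-0.04) were 0.21 with every V segment, 0.0022 joined, and -0.26 to 0.31. TRAJ22 (0.19) was -0.23 by distinct sequences, -0.92 with every V segment, -0.24 joined, and -0.22 to 0.89. TRAJ15 (0.01) was -0.046 by DESeq2, -0.10 by distinct sequences, and -0.51 to 0.97. TRAJ7 (-0.11) was 0.040 without the largest sequences and -0.20 to 0.089. The joined, crossed, exact-matching and largest-left-out alternatives were chosen after seeing the data.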
